A study of Mus musculus with 4 samples.

Results

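In myeloid-derived suppressor cells (MDSC) grown from mouse bone marrow, 413 of the 103336 H3K9ac peaks called with romidepsin were 20 kb or shorter and overlapped 3 or more separate peaks of the cells without the drug. They are called the multi-peak regions here. They were chosen by length (end minus start of at most 20000 bp) and by overlap (at least 1 bp with each of at least 3 peaks of the other list), so that their lengths, their peak numbers and the distances they span describe the choice and support nothing. They made up 0.401% of the 103018 romidepsin peaks of that length. H3K9ac, the acetylation of lysine 9 on histone H3, had been mapped by chromatin immunoprecipitation and sequencing (ChIP-seq). The labels describe myeloid cells brought to senescence in culture and name a condition CM, which they do not expand. The series held 4 samples, an immunoprecipitate and an input for CM cells and for CM cells given romidepsin, and the CM treatment was thus common to both groups. Strain, age, dose and duration, and whether cells of several animals were pooled, is not given in the sources used here. Both immunoprecipitated libraries were analysed, 1 for each condition, as lists of broad peaks on mm10, the mouse build also called GRCm38. The input libraries were not analysed here. With 1 library per condition no difference has a replicate check and no test between conditions was run.

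H3K9ac is laid down by histone acetyltransferases, is strongest on the nucleosomes around active gene starts, and is removed by histone deacetylases. Romidepsin inhibits class I deacetylases. A promoter peak usually reaches some way into the gene, and weaker separate peaks can lie along the gene or at enhancers near it. A broad peak in the drug-treated list that covers several peaks of the CM list therefore also covers the sequence between them and beside them, where the CM list has no peak. The MDSC is an immature myeloid cell that restrains T cells, and its lineage depends on transcription factors such as PU.1, encoded by Spi1, and IRF8.

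The gene starts of 8 multi-peak regions show what kind of DNA lay at or beside a CM peak. They belong to the region with the most CM peaks (Sdc3), with the highest fold enrichment in romidepsin (Tle3) and in CM (Ier5), and to the leading gene of 5 gene lists: Irf8 (myeloid transcription factors), Tgfb1 (inflammatory signals), Socs3 (interferon response), Junb (immediate early genes) and Hdac7 (acetylation enzymes). Where the leading gene of a list had no promoter entry or was already shown, the next one was taken. Sequences are RefSeq, build GRCm38.p6, 300 bases 5′ to 3′ on the gene's strand, 250 before the start and 50 from it on. Capitals mark every match, on either strand, to GGGCGG (SP/KLF family), CCAAT (the CCAAT box), CACGTG (an E-box), TATAAA (the TATA box) or GAGGAAG (PU.1), the motifs found among the 11 searched.
Sdc3 (chr4:130792287-130792586, plus strand): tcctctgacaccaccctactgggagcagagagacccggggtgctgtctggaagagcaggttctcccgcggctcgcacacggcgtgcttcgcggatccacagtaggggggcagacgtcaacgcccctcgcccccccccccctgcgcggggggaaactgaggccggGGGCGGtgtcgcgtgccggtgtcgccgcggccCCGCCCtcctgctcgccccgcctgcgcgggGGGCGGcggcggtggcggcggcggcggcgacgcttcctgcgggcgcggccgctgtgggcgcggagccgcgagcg
Tle3 (chr9:61372116-61372415, plus strand): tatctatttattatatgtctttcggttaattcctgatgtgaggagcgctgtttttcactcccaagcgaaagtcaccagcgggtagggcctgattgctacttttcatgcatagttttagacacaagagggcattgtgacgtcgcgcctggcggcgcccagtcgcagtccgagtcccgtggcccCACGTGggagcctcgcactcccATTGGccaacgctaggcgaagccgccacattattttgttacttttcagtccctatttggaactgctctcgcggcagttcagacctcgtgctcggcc
Ier5 (chr1:155099587-155099886, minus strand): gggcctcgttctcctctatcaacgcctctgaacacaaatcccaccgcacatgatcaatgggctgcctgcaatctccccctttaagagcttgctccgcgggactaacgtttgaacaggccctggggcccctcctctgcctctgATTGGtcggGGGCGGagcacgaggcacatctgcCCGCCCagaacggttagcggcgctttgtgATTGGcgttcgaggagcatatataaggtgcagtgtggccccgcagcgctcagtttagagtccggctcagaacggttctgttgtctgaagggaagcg
Irf8 (chr8:120736108-120736407, plus strand): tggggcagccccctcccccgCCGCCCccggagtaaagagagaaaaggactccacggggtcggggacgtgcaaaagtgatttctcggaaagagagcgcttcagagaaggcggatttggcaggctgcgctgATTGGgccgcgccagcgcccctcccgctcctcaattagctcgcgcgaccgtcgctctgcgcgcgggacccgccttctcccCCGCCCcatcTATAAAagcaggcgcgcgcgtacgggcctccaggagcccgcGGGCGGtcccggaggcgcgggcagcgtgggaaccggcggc
Tgfb1 (chr7:25686752-25687051, plus strand): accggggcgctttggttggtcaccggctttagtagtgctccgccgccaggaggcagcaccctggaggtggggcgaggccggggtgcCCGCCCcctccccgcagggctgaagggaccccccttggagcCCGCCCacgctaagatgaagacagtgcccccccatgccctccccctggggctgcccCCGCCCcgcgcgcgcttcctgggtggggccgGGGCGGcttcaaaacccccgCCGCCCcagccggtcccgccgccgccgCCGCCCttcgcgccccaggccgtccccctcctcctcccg
Socs3 (chr11:117969317-117969616, minus strand): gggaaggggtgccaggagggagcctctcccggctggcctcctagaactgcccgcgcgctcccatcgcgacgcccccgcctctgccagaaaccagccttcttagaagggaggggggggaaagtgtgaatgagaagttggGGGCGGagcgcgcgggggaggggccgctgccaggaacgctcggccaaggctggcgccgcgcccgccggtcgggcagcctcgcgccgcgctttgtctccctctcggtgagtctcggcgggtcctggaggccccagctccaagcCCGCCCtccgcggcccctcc
Junb (chr8:84978699-84978998, minus strand): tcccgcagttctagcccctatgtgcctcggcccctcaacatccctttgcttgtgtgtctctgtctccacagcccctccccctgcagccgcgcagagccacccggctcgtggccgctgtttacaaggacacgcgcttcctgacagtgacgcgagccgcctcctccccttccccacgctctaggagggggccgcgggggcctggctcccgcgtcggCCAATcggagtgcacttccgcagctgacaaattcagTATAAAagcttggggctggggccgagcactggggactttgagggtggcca
Hdac7 (chr15:97831446-97831745, minus strand): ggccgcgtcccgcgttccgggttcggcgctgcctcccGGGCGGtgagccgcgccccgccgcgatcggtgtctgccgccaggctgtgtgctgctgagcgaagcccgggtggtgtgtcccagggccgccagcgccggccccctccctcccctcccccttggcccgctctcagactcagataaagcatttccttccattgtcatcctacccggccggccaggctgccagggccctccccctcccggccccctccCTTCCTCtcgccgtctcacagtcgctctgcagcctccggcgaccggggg

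Matches to GGGCGG numbered 6 in Tgfb1, 3 each in Sdc3 and Irf8, 2 each in Ier5 and Socs3, and 1 in Hdac7, and neither Tle3 nor Junb held one. Junb and Irf8 each held TATAAA and CCAAT once, Ier5 held CCAAT 2 times, and Tle3 held CACGTG and CCAAT once each. The GC content of these stretches ranged from 53.7% in Tle3 to 77.7% in Sdc3. A match is a description of the letters, not of a bound site.

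Per the file's own values, each peak carries the authors' fold enrichment over background, averaged over the whole broad peak, and the −log10 of its q-value. Folds were compared only within a list. Read depth was unknown. The myeloid label was checked against markers at gene starts: 11 of 15 myeloid markers had a CM peak there and 13 had a romidepsin peak. The granulocytic markers were split: Ly6g and S100a9 had neither, while S100a8 and Csf3r had both. Csf1r and Cd14 had a romidepsin peak only. A CM peak lay at the start of 0 of 10 lymphocyte markers, 2 of 8 erythroid and megakaryocyte markers, 1 of 8 stromal and endothelial markers and 0 of 8 markers of other tissues, against 6, 6, 4 and 1 for romidepsin. Of all 21896 protein-coding genes, 9358 had a CM peak at the start and 12794 a romidepsin peak, so a romidepsin peak there is common. The part of other cell types in the results below was not tested.

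The 413 regions held 1383 CM peaks, 8.42% of the 16419 in the CM list. Of the regions, 305 (73.8%, exact 95% interval 69.3 to 78) held exactly 3, 80 held 4, 22 held 5, 5 held 6 and 1 held 8. Intervals in the text are Clopper-Pearson intervals and cover counting error only. The regions spanned 5.58 Mb in total. CM peaks covered 1.83 Mb of this (32.7%), the stretches between them 1.6 Mb (28.7%), and the stretches from the outermost CM peaks to the edges of the romidepsin peak 2.15 Mb (38.6%). More of the added sequence thus lay outside the row of CM peaks than between them. A region had a median length of 13601 bp, with the middle of the distribution from 10875 to 16859 bp. CM peaks covered a median of 32.3% of it, and the share ranged from 5.97% to 74.3%. The flanks added a median of 4879 bp and the gaps a median of 3318 bp.

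Whether the romidepsin list had 1 peak over neighbouring CM peaks followed their distance. Among all neighbouring pairs of the CM list, 90.9% (interval 89 to 92.5) of the 1075 pairs up to 0.5 kb apart lay in 1 romidepsin peak. The share was 88.2% of 644 pairs at 0.5 to 1 kb and 89.8% of 597 pairs at 1 to 2 kb. It was 60.6% (57.7 to 63.4) of 1161 pairs at 2 to 5 kb, 21.4% (19.2 to 23.7) of 1329 pairs at 5 to 10 kb and 2.61% (1.94 to 3.42) of 1917 pairs at 10 to 20 kb. The share was thus flat up to 2 kb, with overlapping intervals, and fell with every longer bin. Pairs of the longer bins that did not share a peak mostly had romidepsin peaks in the gap all the same: those peaks covered a median of 82% of the gap at 2 to 5 kb, 77.2% at 5 to 10 kb and 55.3% at 10 to 20 kb. The shortest distance between neighbouring peaks was 301 bp in both lists.

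**Figure D1:**
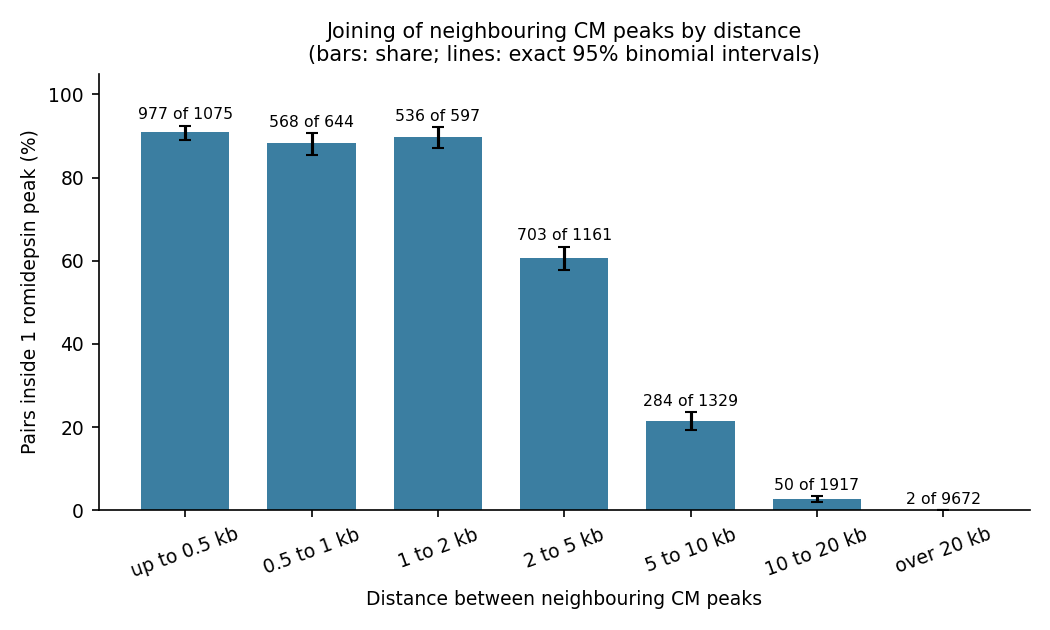
Share of neighbouring CM peaks that lay inside 1 romidepsin peak (vertical axis, percent) by the distance between them (horizontal axis, bins in kb), over the whole CM list. Bars give the share, lines its exact 95% binomial interval, and labels the pairs. The share stays between 88.2% and 90.9% up to 2 kb and is 21.4% at 5 to 10 kb.

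The longest gap between neighbouring CM peaks of a multi-peak region had a median of 2196 bp and ranged from 319 to 11525 bp. The median was 3570 bp with CM peaks closer than 1 kb merged and 1132.5 bp with 2 or more CM peaks asked for. In 192 regions (46.5%) it was under 2 kb, and in 60 (14.5%, interval 11.3 to 18.3) it was 5 kb or longer. The longest gaps lay in Elf1, a gene of an ETS factor (11525 bp), and in Rgs3, a regulator of G-protein signalling (10766 bp). In Elf1 the 3 CM peaks had folds of 3.93, 4.01 and 4.03, all within the gene body. In Rgs3 they had folds of 4.37, 3.5 and 3.68, also within the gene body. Not every dense run of CM peaks was in such a region. Of 2339 runs of 3 neighbouring CM peaks spanning at most 20 kb, 556 (23.8%) lay in a multi-peak region, 488 (20.9%) in a romidepsin peak over 20 kb and 1295 (55.4%) in no single romidepsin peak. The median longest gap of these runs was 1868, 3067 and 7890 bp in the same order, and their median CM folds were 4.13, 4.08 and 4.39. Runs overlap one another and share peaks, so these are counts of runs and not of independent loci.

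The region with the most CM peaks lay over Sdc3, the gene of the cell-surface proteoglycan syndecan 3 (chromosome 4, 130789561 to 130807118). Its 8 CM peaks began with a peak of 1639 bp and fold 6.61 at the gene start. The next 7, all inside the gene, had folds of 4.09, 3.89, 3.5, 3.32, 3.7, 3.3 and 3.35 and lengths of 271 to 804 bp. The single romidepsin peak had a fold of 3.71 over 17558 bp. In CM the start peak was thus well above the other 7, which lay close together in fold.

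Of the 5 regions with 6 CM peaks, the 4 with the highest romidepsin folds are given first. The lysozyme locus Lyz2 and Lyz1 (chromosome 10, 117276799 to 117295719) encodes bacteria-lysing enzymes, and of these genes only Lyz2 is among the myeloid markers. The locus had a CM peak of 5469 bp and fold 6.95 at the Lyz2 start, followed by 5 peaks of fold 3.58 to 4.14. No CM peak covered the Lyz1 start, which was 2863 bp from the nearest. Both lysozyme genes are near-identical copies, so reads may be shared between them and their values are uncertain. In Evl, an actin regulator, the 6 CM peaks lay within the gene and away from its start, with folds of 3.67, 3.3, 6.71, 4.26, 4.24 and 3.92. In the region of Snx1, a sorting nexin, and Ciao2a the folds were 3.93, 3.4, 6.08, 5.33, 3.89 and 3.44, and the 2 highest were the 2 peaks at gene starts. The last of the 4, and the fifth region with 6, spanned no coding gene and are described with the regions free of coding genes.

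Regions also differed in how much was already a peak in CM. In the region of Lamtor4, a lysosomal scaffold gene, with Map11 and Gal3st4, CM peaks covered 74.3% of 11849 bp. They covered 72.3% of the region of Pip5k1c, a phosphoinositide kinase, and 71.6% of that of B2m, the light chain of MHC class I. The opposite end held gene-body regions. In Septin9, a cytoskeletal GTPase gene, CM peaks of 357, 452 and 291 bp covered 5.97% of 18427 bp. They covered 6.54% of a region in Rgs3 and 8.15% of a region in Tle3, a Groucho-type corepressor gene. None of these 3 sparse regions held a gene start, and their CM folds ranged from 3.36 to 4.39.

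**Figure D2:**
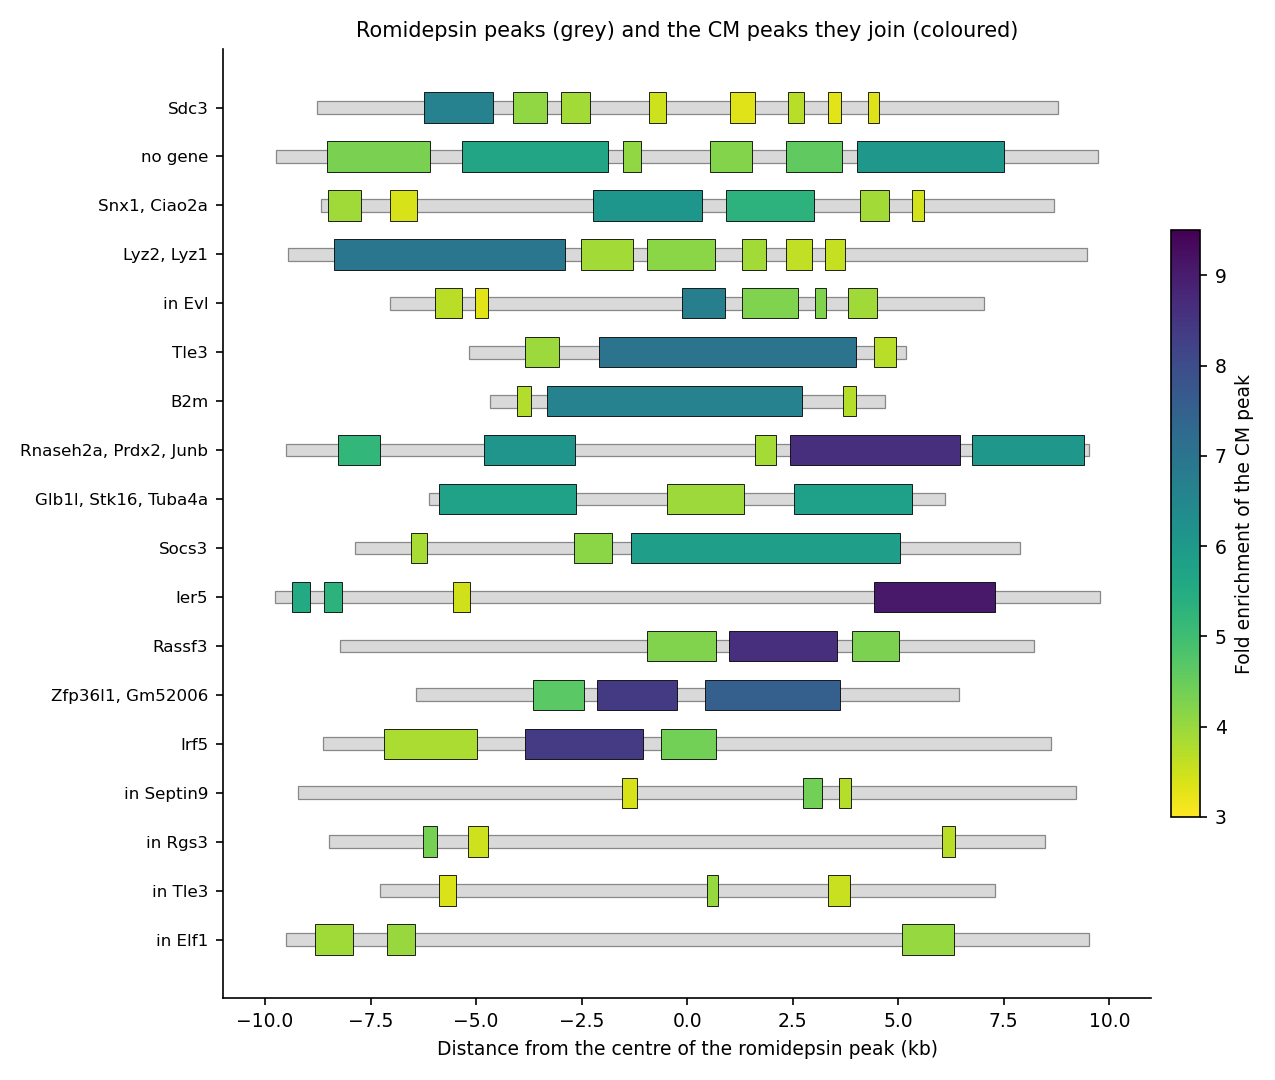
Named multi-peak regions drawn to scale, with the distance from the centre of the romidepsin peak in kb on the horizontal axis. Grey bars are the romidepsin peaks and coloured boxes the CM peaks they overlap, coloured by the CM fold. The start peaks of Ier5 (9.08), Rassf3 (8.63) and Junb (8.62) are the darkest, and the boxes in Septin9, Rgs3 and Elf1 are few and pale.

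The romidepsin peaks over these regions ranked high in fold in their own list. Their fold had a median of 4.01 and ranged from 2.87 to 5.01, and the median region stood at the 95.4th percentile of all romidepsin peaks. A fold of 4 or more was held by 211 of them (51.1%), against 4.73% of all romidepsin peaks. Like classes gave close values: the median was 4.00 for the 193 romidepsin peaks over 20 kb with 3 or more CM peaks and 3.83 for the 12594 of 20 kb or shorter with 1 or 2. It was 2.58 for the 90011 short ones with none. Length differed between these classes as well, with medians of 25755, 4640 and 805 bp. Among romidepsin peaks of 10 to 20 kb alone, the median fold was 4.04 for 337 multi-peak regions and 3.79 for 1412 peaks with 1 or 2 CM peaks.

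The highest romidepsin folds belonged to 5 regions. They lay at Tle3 (fold 5.01), at B2m (5.00), over Rnaseh2a, Prdx2 and Junb (4.93), over Glb1l, Stk16 and Tuba4a (4.89) and at Socs3, a cytokine signalling inhibitor (4.86). At Tle3 the CM folds were 3.99, 7.03 and 3.71, and at B2m they were 3.74, 6.63 and 3.72. In both, a start peak of about the same length, 6083 and 6049 bp, stood between a pair of short weaker ones. At Socs3 the CM folds were 3.86, 4.14 and 5.89, with the highest at the gene start and the others outside genes, beyond the gene's end. Over Rnaseh2a, Prdx2 and Junb the CM folds were 5.22, 6.12, 3.87, 8.62 and 6.05. Junb encodes an AP-1 subunit, and its start lay in the peak of fold 8.62.

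Within a region the CM peaks were uneven, and the strongest was usually at a gene start. The strongest CM peak of a region had a median fold of 6.05 and the weakest 3.64, a median ratio of 1.6. In 307 regions (74.3%, interval 69.8 to 78.5) the strongest CM peak lay within 1 kb of a gene start. Of the 287 regions with CM peaks both at and away from starts, the strongest was at a start in 270 (94.1%, 90.7 to 96.5). In regions with 3 CM peaks of which 1 was at a start, it was the strongest in 119 of 131 (90.8%). The highest CM folds of the regions were at the starts of Ier5 (9.08), Rassf3 (8.63), Junb (8.62), Zfp36l1 (8.42) and Irf5 (8.36). Ier5, Junb and Zfp36l1 are growth factor-induced early genes, Rassf3 encodes a Ras-association protein and Irf5 an interferon regulatory factor.

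By place, 516 of the CM peaks in the regions (37.3%) were at a gene start, 626 (45.3%) elsewhere in a gene and 241 (17.4%) outside genes. The other CM peaks were distributed differently, with 66.3%, 19.8% and 13.9%. The rule, which asks for several CM peaks close together, bears on this split. At each place the folds resembled those of other CM peaks. At starts the median was 5.81 in the regions and 5.68 outside them, elsewhere in genes 3.79 and 3.89, and outside genes 4.06 in both. Start peaks in the regions were longer, with a median of 1910.5 bp against 1465 bp. Over all places the median fold was 4.15 in the regions and 5.12 outside them.

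**Figure D3:**
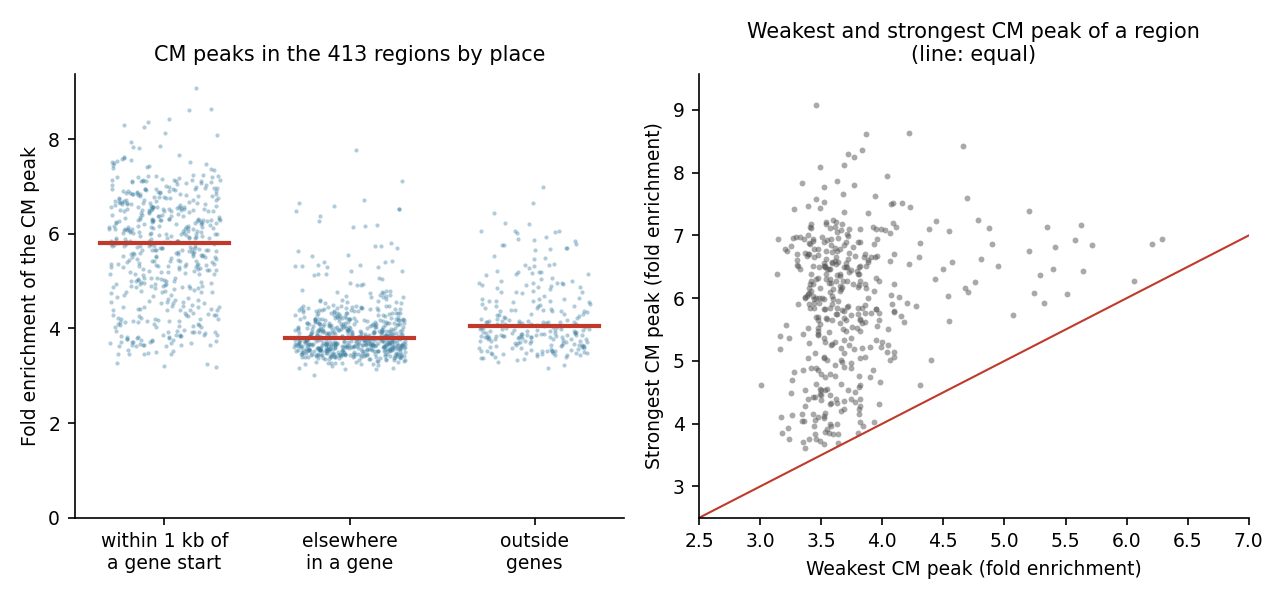
Left, fold enrichment of the 1383 CM peaks in the regions (vertical axis) by place, 1 point per peak, with red lines at the medians of 5.81, 3.79 and 4.06. Right, the strongest (vertical axis) against the weakest (horizontal axis) CM peak of each region by fold, 1 point per region, with a red line where both are equal; most weakest peaks lie between 3 and 4 while the strongest spread up to 9.08.

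A gene start with 1 kb on either side was overlapped by 326 regions (78.9%, interval 74.7 to 82.8), against 13.9% of all romidepsin peaks. The share was 73.9% for short romidepsin peaks with 1 or 2 CM peaks, 88.1% for those over 20 kb with 3 or more, and 4.94% for short ones with no CM peak. So the regions lay between the classes that also hold CM peaks. In 216 regions (52.3%) a single gene started, in 68 there were 2, in 28 there were 3 and in 9 there were 4, while 92 (22.3%) held none. In all, 470 of 21896 protein-coding genes (2.15%) started in a region. Start and strand came from the RefSeq promoter table for 389 of them. For the other 81 the table had no entry, both ends of the gene were used, and their placement is uncertain.

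Where 1 stranded start lay in a region, the romidepsin peak reached much further into the gene than before it. Over 187 such regions the peak extended a median of 2892 bp upstream and 9502 bp downstream of the start, and the downstream side was the longer in 158 (84.5%, interval 78.5 to 89.4). Their CM peaks lay the same way: 219 were at the start, 342 downstream and 67 upstream, so 83.6% of those away from the start were downstream. Downstream peaks alone accompanied the start in 142 regions, upstream peaks alone in 17 and both in 27. The asymmetry was not particular to the regions. The downstream side was the longer in 83.1% of 6252 romidepsin peaks with 1 or 2 CM peaks and 1 start, and in 88.7% of 71 such peaks over 20 kb with 3 or more CM peaks.

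The furthest downstream reach was 18141 bp in Dnm2, the gene of the GTPase dynamin 2. In Irak2, a kinase of interleukin 1 signalling, it was 17395 bp, with CM folds of 5.43, 4, 3.35 and 3.94. At Ier5 it was 17034 bp and passed the end of that short gene. The start peak of Ier5 had a fold of 9.08, and the other 3 CM peaks, with folds of 5.54, 5.33 and 3.46, lay outside genes, the nearest of them 9593 bp from the start peak. The furthest upstream reach, 16964 bp, was at a start of Tet3, an oxidase of methylated cytosine, where the peak reached 795 bp downstream. That start is not the gene's outermost end, since the 3 other CM peaks of the region, with folds of 3.8, 3.57 and 6.47, also lay within Tet3. At Sf3a3, and in the first of a pair of regions at Tspan14, all further CM peaks also lay upstream of the counted start.

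**Figure D4:**
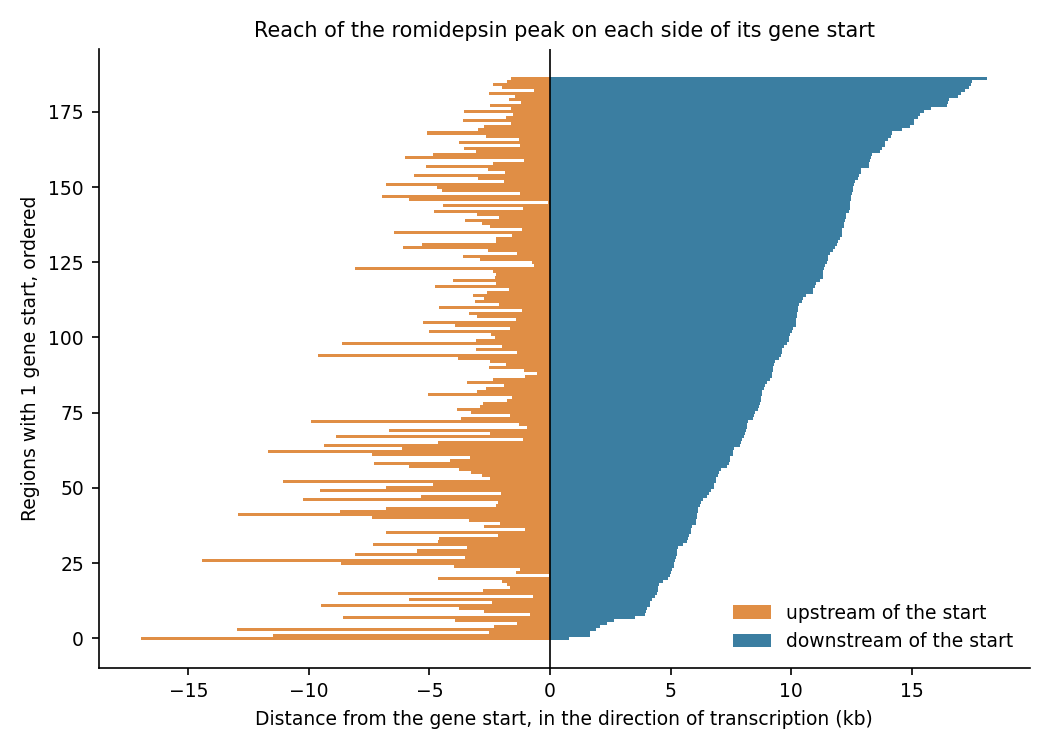
Reach of the romidepsin peak from the gene start in each of the 187 multi-peak regions with a single stranded start, in kb along the direction of transcription (horizontal axis), ordered by downstream reach (vertical axis). Orange bars run upstream and blue bars downstream; blue is the longer side in 158 regions.

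Several regions covered more than a single gene. In 117 regions (28.3%, interval 24 to 32.9) the CM peaks overlapped 2 or more genes, in 214 (51.8%) all CM peaks shared a gene, and in 39 none was in a gene. The share with 2 or more genes was 43.6% with CM peaks of a −log10 q of at least 2, and 45.9% with CM peaks closer than 1 kb merged. Of 47 regions with exactly 2 stranded starts, 22 (46.8%) had them pointing apart, 18 the same way and 7 towards each other. The starts that pointed apart were a median of 2001.5 bp from each other, and 6 of these pairs were within 1 kb. The most gene starts in a region, 4, were found in 9 regions, and the 3 of these with the highest romidepsin folds are given. In the MHC on chromosome 17, Ring1 (a Polycomb subunit), H2-Ke6, Slc39a7 and Rxrb (a retinoid X receptor) shared a region with CM folds of 7.39, 5.2 and 6.52. Close by, Smim40, Daxx (a histone H3.3 chaperone), Zbtb22 and Tapbp (the peptide-loading factor tapasin) shared another with CM folds of 6.9, 3.7, 4.16 and 5.74. On chromosome 19, Plcb3, Ppp1r14b, Fkbp2 and LOC114841036 shared a region with CM folds of 6, 5.51 and 6.06. No CM peak of the first or the third of these regions had a fold under 5.2.

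A gene start inside a region was not always inside a CM peak. Of the 389 genes with a stranded start, 54 (13.9%, interval 10.6 to 17.7) had no CM peak on the start base, 35 with the start between CM peaks and 19 beside them. Most missed narrowly, with a median of 76.5 bp to the nearest CM peak and 47 within 1 kb. The share was 10.4% in romidepsin peaks over 20 kb with 3 or more CM peaks and 12.6% in romidepsin peaks of 20 kb or shorter with 1 or 2. The 7 starts over 1 kb away belonged to Necab2 (5172 bp), Rpl3l (3353), Lyz1 (2863), Rhbdl1 (2470), Atg9b (2185), Ifitm5 (1891) and Rnf151 (1008). Rpl3l is a ribosomal protein gene typical of striated muscle, Ifitm5 is typical of bone-forming cells and Necab2 of neurons. Rpl3l and Rnf151 started in the region of Rps2, a ribosomal protein gene of all cells, and Ndufb10, whose CM folds were 6.39, 3.42 and 5.98. Klf1, an erythroid transcription factor, started 513 bp from a CM peak in a region it shared with Dnase2a. Prtn3, a neutrophil protease gene, started 199 bp from one.

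The 92 regions with no gene start had lower folds. Their romidepsin fold had a median of 3.78 against 4.08 in the 321 regions with a start, and their strongest CM peak a median fold of 4.53 against 6.3. The ranges overlapped: the strongest CM peak had folds of 3.61 to 8.25 without a start and 3.7 to 9.08 with it. CM peaks covered a median of 24% of a region without a start and 33.7% of one with it. Of the 92, 55 overlapped a coding gene, such as those in Evl, Septin9 and Elf1, and 37 overlapped no coding gene. A noncoding start lay in 18 of the 92.

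The regions free of coding genes had a median distance of 22038 bp to the nearest coding gene start or end, and 13 were over 50 kb away. Some of them held noncoding starts. 2 of them held the most CM peaks, 6 each. The first was on chromosome 15, 74916606 to 74936076, 18949 bp from an end of Ly6e, a gene of a GPI-anchored surface protein. Its 6 CM peaks had folds of 4.3, 5.69, 4.07, 4.2, 4.58 and 6.05 and covered 62.3% of the region. The other was on chromosome 5, 96910775 to 96925263, with a strongest CM fold of 4.89, and lay 64807 bp from Anxa3. It held starts of the noncoding genes Gm33370 and Gm8013. On chromosome 2 neighbouring regions with 4 and 5 CM peaks lay 52616 and 62595 bp from the start of Cebpb, the gene of a C/EBP factor of myeloid cells, with strongest CM folds of 4.23 and 5.48. On chromosome 17, 3 regions followed each other between 84098445 and 84131996, with 3, 3 and 5 CM peaks. The last lay 51928 bp from Zfp36l2, an RNA-decay factor gene. A region 37407 bp from Ccr1, a chemokine receptor gene, held a CM peak of fold 6.99, the highest in any region free of coding genes. That region held a start of the noncoding gene Gm51701. Nearness to a gene is a distance on the chromosome and assigns no target.

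The regions were often part of longer runs. Another romidepsin peak lay within 1 kb of 370 regions (89.6%), at a median distance of 405 bp over all regions. There were 13 pairs of multi-peak regions within 10 kb of each other, the closest 318 bp apart. That pair split Tle3, with 3 CM peaks of fold 3.71 to 7.03 around its start in the first region and 3 of fold 3.36 to 4.04 in the next. Others were at Tspan14, at Plec, Parp10 and Grina, beside and at Nfe2l2 (an oxidative stress factor), and at Snx20 and Nod2. Just inside the length limit were the regions of Il10ra (19870 bp) and Tspoap1 (19990 bp), with 4 CM peaks each. Just outside it were those at Map7d1 and Trappc3 (20049 bp, 6 CM peaks), Mnt (20060 bp, 3) and one on chromosome 14 (20075 bp, 4). Their romidepsin folds, 3.95 to 4.15 inside and 3.9 to 4.36 outside, overlapped.

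Genes of 20 lists, those of myeloid identity and signalling among them, were counted against the 2.15% of all protein-coding genes that start in a region. Lists of genes active in these cells tend to have CM peaks, so the shares are also set beside the 4.27% (400 of 9358) of genes with a CM peak at the start. The list shares are over all genes of a list unless only genes with a CM peak are said to be counted. Point shares above both were found for most of the 20 lists, so they were not particular to myeloid or signalling genes. Among them were ribosomal proteins (9.68%, interval 2.04 to 25.8) and cell cycle genes (12.5%, 3.51 to 29). The ribosomal interval includes 2.15% and both intervals include 4.27%, so these 2 shares are loosely known. Examples were 6 of 33 myeloid transcription factors (18.2%, interval 6.98 to 35.5), 7 of 40 immediate early genes (17.5%, 7.34 to 32.8), 5 of 30 antigen presentation genes (16.7%, 5.64 to 34.7) and 6 of 38 NF-kappaB pathway genes (15.8%, 6.02 to 31.3). Counting genes with a CM peak at the start alone, the shares of these example lists were 22.2% of 27, 16.7% of 36, 23.8% of 21 and 17.1% of 35 genes in the same order. Counted the same way, ribosomal proteins had 11.1% of 27 and cell cycle genes 16.7% of 24. In romidepsin peaks over 20 kb with 3 or more CM peaks, the example lists had 9.09%, 7.5%, 3.33% and 7.89% of their genes. Of all protein-coding genes 1.48% started there. The lists were drawn up with results of these data known, and the counts are descriptions.

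**Figure D5:**
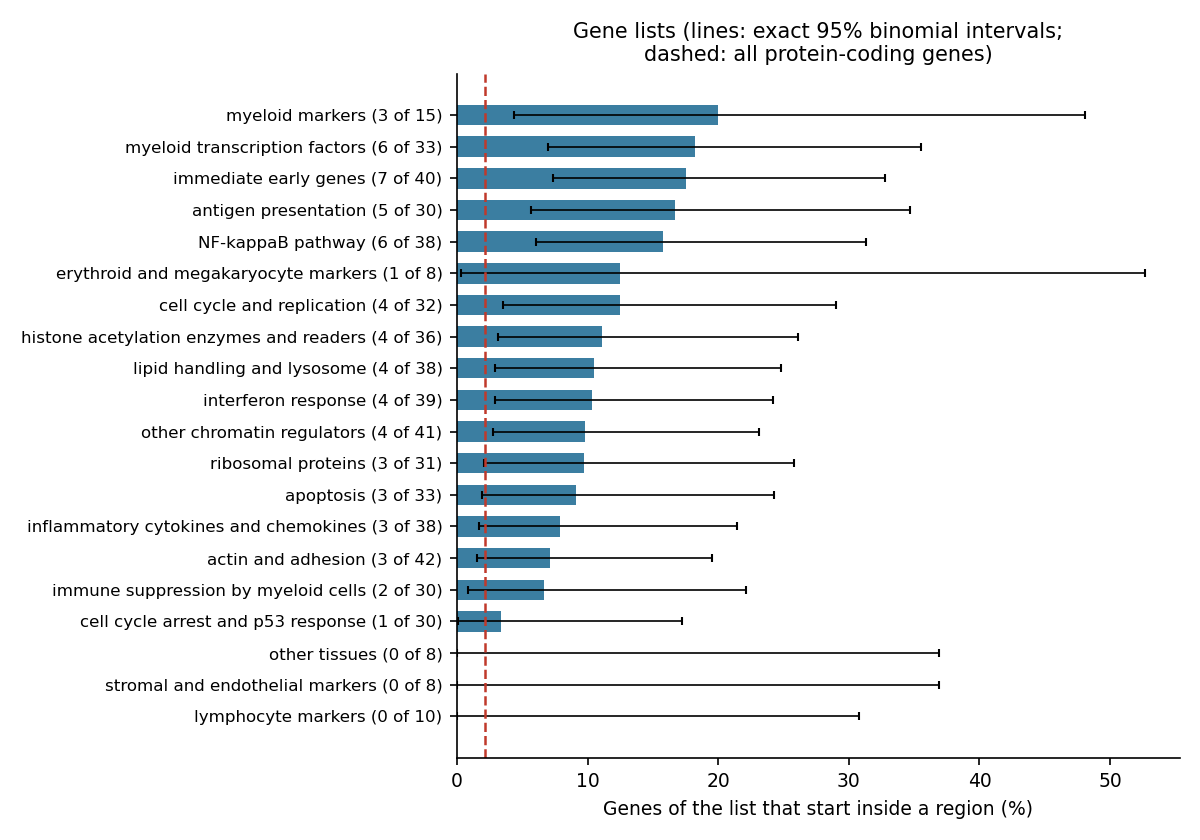
Share of the genes of each list that start in a multi-peak region (horizontal axis, percent), with the counts beside the names. Lines are exact 95% binomial intervals and the dashed line is the 2.15% of all protein-coding genes. The intervals of 10 lists lie wholly above that line, and 3 lists have no gene in a region.

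The myeloid transcription factors in regions included Spi1, Irf8, Id2, Runx1 and Irf5. At Spi1 the 4 CM peaks had folds of 3.69, 3.7, 6.32 and 3.47, the highest over 7409 bp at the gene end taken as its start. At Irf8 they had folds of 5.37, 3.52, 3.68 and 3.64, the first, of 4573 bp, at the start and the others in the gene. At Id2, an inhibitor of basic helix-loop-helix factors, the folds were 6.3, 4.43 and 4.88. Runx1, a regulator of blood formation, had 4.28, 3.88 and 6.57, and its counted start lay outside the CM peaks. The romidepsin folds of these 5 regions ranged from 3.8 at Irf8 to 4.54 at Id2.

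The 7 immediate early genes, which are switched on within minutes of a stimulus, were Junb, Nfil3, Ier5, Zfp36l1, Nr4a2, Gadd45g and Dusp1. At Nfil3 the 4 CM folds were 6.72, 3.37, 4.63 and 3.85. At Dusp1, a MAP kinase phosphatase gene, they were 4.87, 6.52 and 3.52, and at Nr4a2, an orphan nuclear receptor gene, 3.58, 4.67 and 6.84. At Zfp36l1, 2 of the 3 CM peaks had folds of 8.42 and 7.56 and were separated by 649 bp. The second highest CM fold was 6.12 in the region of Junb and 5.54 in that of Ier5. Of the NF-kappaB pathway, Tnip1, Tnfaip3 and Birc3 encode ubiquitin-related regulators, Myd88 and Irak2 act below Toll-like receptors and Cflar restrains caspase 8. Tnfaip3 had CM folds of 3.78, 3.74 and 5.74, and Tnip1 had 4.24, 4.2, 5.13 and 5.93. The region of Myd88, with 4.12, 3.59, 6.44 and 6.73, also held the start of Acaa1a, a peroxisomal thiolase gene.

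Antigen presentation was represented by Tapbp, B2m, Calr (a chaperone of the loading complex), H2-D1 and H2-T23. At H2-D1 the CM folds were 5.69, 5.2 and 6.75, and at H2-T23, which shared its region with H2-T22 and Gm6034, they were 6.34, 6.46 and 4.5. MHC class I genes are close copies of each other, and their values are uncertain. Of 39 interferon response genes 4 (10.3%) were in regions: Socs3, Oas3, Bst2 and Ifit2. Ifit2 had the shortest region named here, 4774 bp, with CM folds of 4.61, 3.82 and 3.97. Oas3 had 3.8, 6.9 and 4.38. Of 38 inflammatory cytokine and chemokine genes 3 (7.89%) were in regions. They were Tgfb1, with 4.98, 3.88 and 7.35 in a region shared with B9d2, Cxcl16, with 5.39, 3.7 and 6.5, and Ccl9, with 3.28, 3.6 and 4.83. Ncf1, a subunit of the phagocyte oxidase, and Hif1a, the hypoxia factor, made up 2 of the 30 genes of immune suppression (6.67%).

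Of 36 acetylation enzymes and readers 4 (11.1%) were in regions: Hdac7, Hdac3, Sin3a and Ep300. At Hdac7, a class IIa deacetylase, the CM folds were 3.62, 4.93, 3.52 and 6.56, the last at the start. At Ep300, an acetyltransferase, they were 5.18, 7.94 and 4.04, and at Sin3a, the scaffold of a deacetylase complex, 6.47, 5.69 and 5.4. Hdac3, a class I deacetylase, shared its region with Diaph1 and was placed by a gene end, with no CM peak over that end. Other chromatin regulators in regions were Tet3, Chd2, Arid1b and Dnmt1, 4 of 41 (9.76%).

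The remaining lists were E2f2, Cdk4, Cdt1 and Tk1 of 32 cell cycle genes (12.5%), Ctsb, Ppard, Lamp1 and Apoe of 38 lipid and lysosome genes (10.5%), and 3 of 31 ribosomal protein genes (9.68%), Rps18 and Rps2 among them. Tnfrsf1b, Bax and Bmf were in regions of 33 apoptosis genes (9.09%), Arpc3, Cyth4 and Flna of 42 actin and adhesion genes (7.14%), and Ccnd3 alone of 30 genes of cell cycle arrest and the p53 response (3.33%). E2f2 had 5 CM peaks, with folds of 6.66, 3.94, 4.37, 4.07 and 4.03. Of the actin and adhesion genes, 7 of 42 (16.7%) started in romidepsin peaks over 20 kb with 3 or more CM peaks, against 1.48% of all protein-coding genes. Myeloid markers in regions were Lyz2, Spi1 and Ly6c2, 3 of 15 (20%), where Ly6c2 belongs to a family of close copies and is uncertain. Klf1 was the single erythroid marker. None of the 10 lymphocyte markers (upper bound 30.8%), 8 stromal or 8 other tissue markers (upper bound 36.9% each) started in a region. Among families looked at after the values had been seen, 12 of 63 clustered histone genes (19%) started in regions, among them H2ac18, H2ac19, H3c14 and H3c15, against 3 of 39 Hox genes (7.69%), 2 of 33 Ly6 genes (6.06%), 4 of 397 Zfp genes (1.01%) and 2.15% of all genes. The 12 histone genes are neighbours that shared regions, so they are not 12 independent loci. H2ac18, H2ac19, H3c14 and H3c15, for example, all started under the same romidepsin peak on chromosome 3. The coding sequences of the histone genes are near-identical, and their values are uncertain.

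Of 1005 miRNA hairpins in the RefSeq table, 21 lay in a region and 14 of these in a CM peak. In the whole list of 1005, 319 hairpins lay in any romidepsin peak and 99 in a CM peak. Among protein-coding genes, 470 of 21896 (2.15%) started in a region. No difference between these shares was tested. Mir142, a miRNA gene typical of blood cells, lay in a CM peak of the Tspoap1 region (chromosome 11, 87746882 to 87766871, 4 CM peaks, romidepsin fold 4.15). It was chosen for printing after its position was seen. Its mature sequences are shown with the seed, bases 2 to 8, in capitals.
mmu-miR-142a-5p (chr11:87756867-87756887, plus strand): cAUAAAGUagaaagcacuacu
mmu-miR-142a-3p (chr11:87756903-87756925, plus strand): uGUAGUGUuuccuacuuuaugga

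Some other hairpins in regions lay outside the CM peaks. Among them were Mir10a in the region of Hoxb3 and Hoxb4, Mir141 and Mir200c in that of Emg1 and Phb2, and Mir26b in that of Ctdsp1. Mir141 and Mir200c are known from epithelial cells. Mir210, a hypoxia-linked miRNA, and Mir484 lay within CM peaks.

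The promoters in the regions were CpG-rich, with values close to those of the romidepsin peaks over 20 kb that held 3 or more CM peaks. Over 488 promoter entries of 300 bases in the regions, the median GC content was 61% and the median ratio of observed to expected CpG was 0.732. The ratio is 1 where CpG is as frequent as its bases predict. It was 0.744 for 339 entries in those longer peaks, 0.812 for 8823 entries in other CM peaks, 0.567 for all 21262 entries and 0.226 for 8754 entries in no romidepsin peak. Within the regions, 406 entries in a CM peak had a median ratio of 0.764 and 82 entries between or beside CM peaks 0.512. A ratio of 0.6 or more was held by 70.2% of the former and 39% of the latter. Entries that share a gene or a region are not independent.

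Motifs were searched on both strands, and matches of different motifs may share bases. GGGCGG was in 65% of the promoters in the regions (interval 60.5 to 69.2), 68.7% of those in other CM peaks and 46.2% of all. CCGGAAG, an ETS motif, was in 15.2% (12.1 to 18.7), 21.6% and 11.6%. TGACGTCA, the cyclic AMP response element, was in 1.43% (0.579 to 2.93), 3.75% and 2.23%. TATAAA was in 9.22% (6.81 to 12.1), 5.68% and 12.6%, and GAAANNGAA, an interferon response core, in 10.7% (8.06 to 13.7), 7.05% and 8.14%. In romidepsin peaks over 20 kb with 3 or more CM peaks the shares were 66.7% for GGGCGG, 15.6% for CCGGAAG, 2.65% for TGACGTCA, 4.72% for TATAAA and 7.08% for GAAANNGAA, so the ETS share was close to that of the regions. Among the 406 entries of the regions in a CM peak, CCGGAAG was in 17.2% (13.7 to 21.3). No difference in motif share was tested. The other motifs were GAGGAAG (14.1%, against 12.8% in other CM peaks and 13.6% in all), TGANTCA of AP-1 (4.71%, 3.99% and 6.99%), CCAAT (39.1%, 37.1% and 38.2%), CACGTG (8.81%, 10.7% and 7.84%), TTNNGCAA of C/EBP (7.79%, 7.45% and 10.2%) and GGGANTTCC of NF-kappaB (2.87%, 2.56% and 1.84%). A promoter without a match lacks these letters in this window only.

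Regions were found on all 19 autosomes and on X. Chromosome 11 held 47 (11.4%), with 7.35% of the protein-coding genes and 8.58% of the CM peaks. Chromosome X held 2 (0.484%), with 4.41% of the genes and 1.97% of the CM peaks. One of these lay at Flna, an actin crosslinker gene, with CM folds of 3.82, 4.89 and 3.46 and a romidepsin fold of 2.94. Per gene, chromosome 15 had the most, 30.9 regions for every 1000 genes, and X the fewest, 2.07.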

How the data were processed

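H3K9ac ChIP-seq of mouse MDSC was analysed from 2 lists of broad peaks, 1 per condition. Per the submitters' processing notes, Bowtie2 (2.4.4), MACS2 (2.2.7.1) and deepTools (3.5.1) were used with mm10. The settings, and whether the input served as control, are not given in the sources used here. The columns the authors deposited beside each position were a score, not used here, a fold enrichment (ratio), and −log10 values of p and q. How many reads each library had is not known here. More reads make peaks more numerous and wider.

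Members were found by overlap (Python 3.11.15, pandas 2.3.3, numpy 2.4.6, SciPy 1.17.1). The overlap counts were checked with bedtools (2.31.1) and the selection was tested on simulated data. Gene starts came from RefSeq promoter entries for 17491 of 21896 protein-coding genes (79.9%), otherwise from both gene ends, and a window of 1 kb was used on either side. Shares have Clopper-Pearson intervals at 95% confidence. Gene lists held 576 genes, of which 575 were matched (Mx2 was not). Regions were named by rank: most CM peaks, highest folds, largest and smallest CM cover, longest gap, most starts, nearest to the length limit, and the listed genes. Some items that these ranks select are not reported here. Genes named outside these ranks were chosen after their values were seen. Members and lists were chosen with earlier results of these data known. Alternatives covered overlap, −log10 q, fold, merging, equal list sizes, peak number, length limit, chromosomes, window and gene assignment.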

Additional observations from a re-analysis of the deposited data

How the results depend on the processing

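5 results were recomputed under up to 12 alternatives each, in 53 values. Of these, 36 stayed within 1.5 times the count of regions or within the interval of the reported value. Requiring a −log10 q of at least 2 of the CM peaks left 149 regions, of which 85.9% overlapped a gene start and 43.6% had CM peaks in 2 or more genes, with a median CM cover of 33.9% and a median longest gap of 2628 bp. Merging CM peaks closer than 1 kb left 122 regions, with 45.9% in 2 or more genes and a gap of 3570 bp. Asking for 2 or more CM peaks gave 1790 regions (cover 30.2%, gap 1132.5 bp) and for 4 or more 108 (35.8%, 2820 bp). A limit of 15 kb left 265 regions with a gap of 1725 bp. Assigning CM peaks to genes by a start within 1 kb put 24% of regions in 2 or more genes. Fewer CM peaks, or another number or length, enter the rule in these alternatives by construction. No paired analysis was possible because each condition had 1 library. No replicate could be left out for the same reason, and unknown depth limits how far gaps in the CM list can be read as sequence without H3K9ac.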
